A study of Mus musculus with 4 samples.

Results

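The regions described here are distal ATAC-seq peaks of mouse primary myoblasts that held the myogenic E box CAGCTG and no AP-1 site. A peak was a member when its centre lay in an intron or between genes, when its mm9 sequence held at least 1 copy of CAGCTG, and when it held neither TGACTCA nor TGAGTCA, the 7 bp AP-1 consensus. Peaks centred in an exon, or from 1000 bp upstream to 100 bp downstream of an annotated transcript start, were left out. The rule was met by 5024 of the 25775 peaks listed for WT and by 536 of the 3836 peaks listed for Tet2 KO. These were 28.1% of the 17865 distal WT peaks and 25.8% of the 2077 distal Tet2 KO peaks. The rule used position and sequence only, so that the strength of a peak, its overlap with the other genotype, the place of the E box within it and the bases around the E box remained to be described.

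In ATAC-seq the Tn5 transposase places sequencing adapters where chromatin is accessible. The study profiled 2 WT and 2 Tet2 KO samples on the C57BL/6 background, with 5000 cells per library. The Tet2 KO was constitutive, with exon 3 removed by homologous recombination, and WT mice carried no such deletion. In both genotypes satellite cells were sorted from hindlimb muscle as live cells positive for CD34 and Integrin a7 and negative for CD45, CD31, CD11b and Sca1, and were kept in culture for 3 days, by which time they were MyoD+ myoblasts. The methods give 8 to 10 week old male mice unless stated otherwise.

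An E box is the short site CANNTG, with N any base, bound by basic helix-loop-helix proteins, and its central bases decide which dimers prefer it. MyoD and its relatives Myf5, myogenin and Mrf4 bind the copy with GC at the centre as dimers with the E proteins encoded by Tcf3, Tcf4 and Tcf12, and Id proteins compete by taking up the E proteins. Tet2 oxidises 5-methylcytosine and so starts the removal of methyl groups from CpG sites, and the study asked whether CpG sites beside E boxes are where Tet2 acts on MyoD binding.

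1 peak list per genotype was analysed, with no replicate of either, so no difference between WT and Tet2 KO was tested, and the intervals given cover counting error only. The fold enrichment of a peak compares the fragments stacked at its summit, the position of highest coverage, with the number its surroundings predict, after 1 is added to both. The local background most frequent in a list, which is the genome-wide level, amounted to 0.649 fragments for WT against 1.38 for Tet2 KO, a ratio of 2.13. The peaks of each list carried 1 library name, and whether a list came from 1 sample or from pooled samples is not given. This background thus belongs to the list and not to a known sample, and how far it reflects read depth was not tested. Total read numbers are not known, and neither is how the listed peaks were picked from those called. Of 6 myoblast and satellite cell markers, 5 had a WT peak assigned to them and 3 a Tet2 KO peak, and Myf5 had none in either list. Of 11 markers of endothelial, blood and fibro-adipogenic cells, which the sort removes, 6 had a WT peak and 3 a Tet2 KO peak, with no promoter peak at the 10 of them found in the annotation (Spi1 was not). To Tet2 itself 9 WT peaks were assigned, of which 2 were members, and 0 Tet2 KO peaks. Over the whole lists there were 6.72 WT peaks for each Tet2 KO peak, so the 0 is no result about the deletion.

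To show what the members look like, 201 bp centred on the summit are given for peaks chosen by rank, on the forward strand of mm9 with each CAGCTG in capitals. The first pair are the WT members of highest significance (-log10 q of the peak caller) that had a Tet2 KO peak, in introns of Akap6, which anchors protein kinase A at the nuclear envelope of muscle cells, and Dst, a linker of the cytoskeleton. The next pair are the WT members of highest significance without a Tet2 KO peak, assigned to Bms1, a ribosome assembly factor, and Tulp4. The third pair lay in introns of Dip2a and Xrcc5 and led by the number of E boxes within 100 bp of the summit, where a peak of Exosc9 tied with that of Xrcc5 at 5 and came after it by -log10 q.
WT with a Tet2 KO peak, Akap6, chr12:54051809-54052009: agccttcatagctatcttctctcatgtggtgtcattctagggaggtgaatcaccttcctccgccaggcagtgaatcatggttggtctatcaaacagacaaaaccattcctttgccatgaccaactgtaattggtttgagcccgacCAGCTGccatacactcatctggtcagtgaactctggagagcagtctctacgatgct
WT with a Tet2 KO peak, Dst, chr1:34184664-34184864: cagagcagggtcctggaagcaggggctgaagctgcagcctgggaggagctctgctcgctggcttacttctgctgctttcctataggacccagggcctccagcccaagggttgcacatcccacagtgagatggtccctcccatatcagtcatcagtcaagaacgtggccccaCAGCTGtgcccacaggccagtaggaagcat
WT without a Tet2 KO peak, Bms1, chr6:118273134-118273334: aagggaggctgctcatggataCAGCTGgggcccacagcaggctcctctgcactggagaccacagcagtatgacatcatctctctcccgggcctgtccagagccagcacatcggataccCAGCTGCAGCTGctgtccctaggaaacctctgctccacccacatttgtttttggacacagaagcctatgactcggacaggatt
WT without a Tet2 KO peak, Tulp4, chr17:6202483-6202683: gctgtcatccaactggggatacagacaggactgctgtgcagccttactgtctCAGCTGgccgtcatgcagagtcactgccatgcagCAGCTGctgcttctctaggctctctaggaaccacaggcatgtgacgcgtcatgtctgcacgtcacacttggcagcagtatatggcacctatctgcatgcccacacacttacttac
WT with most E boxes, Dip2a, chr10:75756216-75756416: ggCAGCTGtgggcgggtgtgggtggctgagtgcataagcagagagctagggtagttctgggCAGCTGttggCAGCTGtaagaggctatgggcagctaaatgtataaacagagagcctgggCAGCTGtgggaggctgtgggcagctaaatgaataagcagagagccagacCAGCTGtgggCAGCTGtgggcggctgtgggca
WT with most E boxes, Xrcc5, chr1:72356456-72356656: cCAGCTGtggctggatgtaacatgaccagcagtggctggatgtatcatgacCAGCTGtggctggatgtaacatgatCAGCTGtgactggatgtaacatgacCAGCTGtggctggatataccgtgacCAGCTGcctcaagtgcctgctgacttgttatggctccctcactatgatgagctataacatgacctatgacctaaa

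In the Bms1 window 2 of the 3 E boxes were joined end to end, 6 bp from start to start. The last 4 of the 5 E boxes of the Xrcc5 window followed at steps of 25 bp, and among the 6 of the Dip2a window steps of 10 and of 49 bp each occurred 2 times, so both windows held E boxes at repeated steps. The Dip2a peak is narrower than its window and held 4 of the 6. For genes of muscle, a window is given for the strongest contractile member, in an intron of Myom1 (myomesin of the M band). Another is the member in an intron of Tmem8c, which encodes the fusion protein myomaker. The third is the strongest member assigned to Mef2c, a partner of MyoD, and lies 392392 bp upstream of the Mef2c start. In Tet2 KO the member of highest significance lay in an intron of Fbxw4, and the strongest member without a WT peak was assigned to Gm17019.
WT, Myom1, chr17:71388239-71388439: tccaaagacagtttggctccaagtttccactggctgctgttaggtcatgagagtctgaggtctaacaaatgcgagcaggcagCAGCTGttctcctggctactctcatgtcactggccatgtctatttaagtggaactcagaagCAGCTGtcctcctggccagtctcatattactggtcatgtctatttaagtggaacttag
WT, Tmem8c, chr2:26925275-26925475: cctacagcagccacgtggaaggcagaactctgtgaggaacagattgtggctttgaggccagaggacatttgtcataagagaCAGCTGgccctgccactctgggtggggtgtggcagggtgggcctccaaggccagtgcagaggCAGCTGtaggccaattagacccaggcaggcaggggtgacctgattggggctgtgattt
WT, Mef2c, chr13:83250599-83250799: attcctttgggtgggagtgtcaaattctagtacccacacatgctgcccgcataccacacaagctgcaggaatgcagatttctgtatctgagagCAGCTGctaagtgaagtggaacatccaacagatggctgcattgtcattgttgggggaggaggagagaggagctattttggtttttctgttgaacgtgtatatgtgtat
Tet2 KO, Fbxw4, chr19:45724558-45724758: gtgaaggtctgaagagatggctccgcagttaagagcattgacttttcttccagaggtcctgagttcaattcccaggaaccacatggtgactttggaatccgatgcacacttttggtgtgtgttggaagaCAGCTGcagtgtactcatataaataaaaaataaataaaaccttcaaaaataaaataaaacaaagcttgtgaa
Tet2 KO without a WT peak, Gm17019, chr5:15007509-15007709: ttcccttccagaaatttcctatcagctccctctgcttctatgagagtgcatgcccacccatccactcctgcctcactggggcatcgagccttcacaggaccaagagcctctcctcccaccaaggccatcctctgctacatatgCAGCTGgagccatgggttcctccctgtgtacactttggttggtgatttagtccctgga

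CAGCTG was concentrated at the summits of distal peaks, in both genotypes and to nearly the same density. This was measured over all distal peaks rather than over members, since members hold the motif by rule. Within 10 bp of the summit of distal WT peaks there were 3.41 copies per kb, and 3.38 between 10 and 25 bp. The density fell to 2.30 copies per kb at 50 to 75 bp, 1.16 at 100 to 150 bp and 0.534 at 1000 to 2000 bp. In distal Tet2 KO peaks the density was 3.37 within 10 bp, 2.60 at 50 to 75 bp, 1.67 at 100 to 150 bp and 0.551 at 1000 to 2000 bp. At promoter peaks of WT it was 1.04 copies per kb within 10 bp of the summit and 0.489 at 1000 to 2000 bp, so the rise toward the summit was smaller there.

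**Figure D1:**
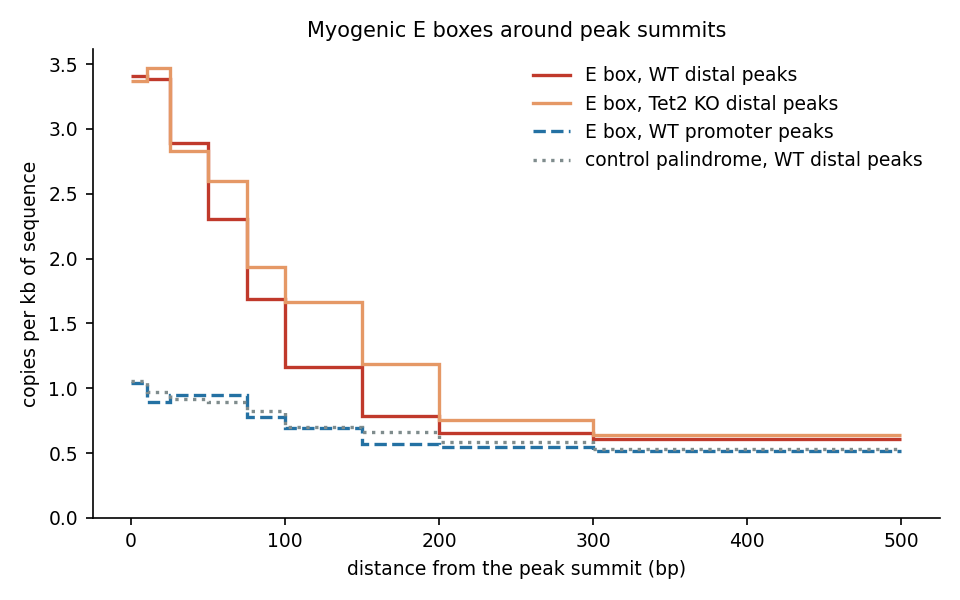
Copies of the myogenic E box per kb of mm9 sequence against distance from the peak summit in bp, for distal WT peaks, distal Tet2 KO peaks and WT promoter peaks, with a control palindrome of the same letters (CTG joined to CAG) in distal WT peaks. The WT and Tet2 KO distal curves start at 3.41 and 3.37 copies per kb, and the control palindrome at 1.06.

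Other palindromes of the same composition rose less toward the summit, with 1 exception in Tet2 KO. Within 50 bp of the summit CAGCTG was 5.94 times as dense as in windows 2000 bp to either side in WT, and 6.17 times in Tet2 KO. Among the 24 palindromes of 6 bp with its content of GC and AT, it ranked first in WT, ahead of GACGTC at 2.74. In Tet2 KO it ranked second, after CGTACG, which rested on 6 copies at summits and 1 in flanks, against 621 and 201 for the E box. The rearranged control CTGCAG stood at 1.83 in WT and 1.95 in Tet2 KO. E boxes of the form CANNTG fall into 10 kinds when both strands are read together. In WT the next after CAGCTG were CAGATG, read with CATCTG, at 1.55 and CAACTG, read with CAGTTG, at 1.53. CACCTG, read with CAGGTG, was sparser at summits than in flanks, at 0.769 in WT and 0.745 in Tet2 KO, and so was CATATG, at 0.667 and 0.806.

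Measured as a share of windows, 39.8% of the 201 bp windows at distal WT summits held CAGCTG (interval 39.1 to 40.5%), against 9.70% of flank windows. At WT promoter peaks these shares were 15.3% and 8.52%. Counting only E boxes within 50 bp of the summit, 26.4% of distal WT and 25.9% of distal Tet2 KO peaks held one, against 4.89% and 4.63% of flanks. Of regions equal in length to the distal WT peaks but placed 2000 bp away, 10.2% met the sequence rule for members, against 28.1% of the peaks.

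How near the E box of a member can lie to the summit is bounded by the rule and the width of the peak, so its distance is given as a description and the density over all distal peaks above is the comparison with flanks. The distance was taken from the summit base to the centre of the E box, which lies between bases. The nearest E box of a WT member was at a median of 33.5 bp (95% order interval 32.5 to 34.5), with quartiles of 14.5 and 61.5 bp. In Tet2 KO members the median was also 33.5 bp (29.5 to 37.5). It lay within 25 bp in 39.6% of WT members and 39.9% of Tet2 KO members, and within 100 bp in 89.8% and 88.4%. The closest were at 0.5 bp, as in a WT member 2026 bp upstream of Dok7, which encodes an adaptor of the neuromuscular junction, and the farthest WT one was at 447.5 bp.

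Most members held a single E box. There was 1 in 3439 WT members (68.5%), 2 in 1217, 3 in 290, 4 in 62 and 5 or more in 16, and the most was 7, in the Xrcc5 peak. In Tet2 KO the numbers were 386 (72.0%), 102, 36, 9 and 3, with a most of 6 in an intron of Olfml2b. Neighbouring E boxes of 1 WT peak were a median of 57.0 bp apart over 2054 pairs, against 65.0 bp over 411 pairs in flank regions. The most frequent spacing in WT members was 12 bp, start to start, with 35 pairs. No spacing stood far from the rest, since 15 and 17 bp had 34 and 33 pairs.

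The bases beside the E box differed between members and flanks. The flank regions, here and for spacing and CpG distance, were those of all distal peaks and could hold an AP-1 site. An E box with a purine before it and a pyrimidine after it, on either strand, made up 45.7% of the 7078 E boxes of WT members (interval 44.6 to 46.9%) and 24.2% of the 4274 in flank regions (22.9 to 25.5%). The opposite arrangement made up 9.49% in members and 23.6% in flanks. In Tet2 KO the shares were 46.1% and 9.47% of 750 E boxes. ACAGCTGC, read with its reverse GCAGCTGT, was the most frequent of the 10 contexts, at 23.4% of WT member E boxes against 12.0% in flanks, and GCAGCTGC stood at 12.4% against 5.80%. TCAGCTGA was at 1.51% against 4.82%, and CCAGCTGG at 3.55% against 7.09%. The grouping into purines and pyrimidines was made after these values were seen. E boxes of WT members with and without a Tet2 KO peak had the first arrangement in 45.3% and 45.8%, with overlapping intervals.

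CpG sites near the E box bear on the question the study asked of Tet2. Of the E boxes of WT members, 30.2% had a CpG within 10 bp (interval 29.1 to 31.3%) and 90.8% within 100 bp (90.1 to 91.4%). In flank regions the shares were 24.2% and 84.8%. The median distance to the nearest CpG was 22.0 bp in members and 29.0 bp in flanks. The part of the general CpG density of the peaks in these differences was not tested. In Tet2 KO members 30.5% of E boxes had a CpG within 10 bp and 94.1% within 100 bp. E boxes of WT members that kept a Tet2 KO peak had one within 10 bp in 31.3% (28.4 to 34.4%), and those of members that did not in 30.04% (28.9 to 31.2%), so the intervals overlapped. Within 100 bp the shares were 94.3% (92.6 to 95.6%) and 90.3% (89.5 to 91.0%).

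Read by the E box nearest the summit, overlap with Tet2 KO was seen for 11.2% of the 1551 WT members with a CpG within 10 bp, 12.4% of 1222 at 11 to 25 bp, 11.3% of 1016 at 26 to 50 bp and 10.5% of 762 at 51 to 100 bp. Of the 473 with no CpG within 100 bp, 7.19% had a Tet2 KO peak (interval 5.19 to 9.88%). Members of that last group were also the least GC-rich, with a median of 48.7% GC against 54.0% in the first, and narrower, at 212 against 220 bp, and the part of these in the difference was not tested. Members as a whole had 1.58 CpG per 100 bp in WT and 1.67 in Tet2 KO. The methylation of these sites was not analysed here.

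There were 9.37 WT members for each Tet2 KO member, against 8.60 for all distal peaks and 6.72 for all peaks. The ratio rested on the peak threshold, since it was 14.8 from a -log10 q of 5 upward and 65 from 10 upward. The lowest -log10 q was 2.46 among WT members and 0.863 among Tet2 KO members, the latter short of the q cutoff of 0.01 in the methods. WT members outnumbered Tet2 KO members on all 20 chromosomes, by 7.35 times on chromosome 15 and by more on the others. Chromosome X had the highest ratio, with 58 WT members and 1 in Tet2 KO, of 236 and 20 distal peaks. The share was 24.6% in WT (interval 19.5 to 30.4%) and 5% in Tet2 KO (0.888 to 23.6%), so the latter rested on 1 peak.

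Of the 5024 WT members, 555 overlapped a Tet2 KO peak by at least 1 bp, which is 11.0% (interval 10.2 to 11.9%). The background was 11.0% of distal WT peaks and 14.1% of all WT peaks, so the share of members was that of distal peaks in general and is no result about the E box. It fell to 6.54% and 1.65% of members when peaks of both lists were kept only from a -log10 q of 5 and of 10 upward. By class, the share was 9.65% for distal WT peaks with AP-1 only (8.84 to 10.5%), 20.5% with both motifs (19.0 to 22.1%) and 7.58% with neither (6.91 to 8.31%). These classes differed in strength, with median fold enrichments of 7.87 for members, 8.25 with AP-1 only, 9.10 with both and 7.18 with neither. They differed in width as well, at 221, 206, 255 and 181 bp, and a wide peak has more sequence in which to hold a motif.

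Strength went with the overlap in every class. Distal WT peaks were divided by fold enrichment into 5 groups of equal size. Among members the overlap climbed from 1.21% of the weakest through 2.81%, 5.73% and 13.3% to 33.5% of the strongest. In the strongest group it was 27.7% with AP-1 only, 40.3% with both motifs and 32.6% with neither, and the intervals of members (30.5 to 36.5%) and of peaks with neither motif (29.1 to 36.3%) overlapped. With the groups weighted as they occur among members, the shares were 11.0% for members, 10.2% with neither motif, 8.45% with AP-1 only and 14.1% with both.

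**Figure D2:**
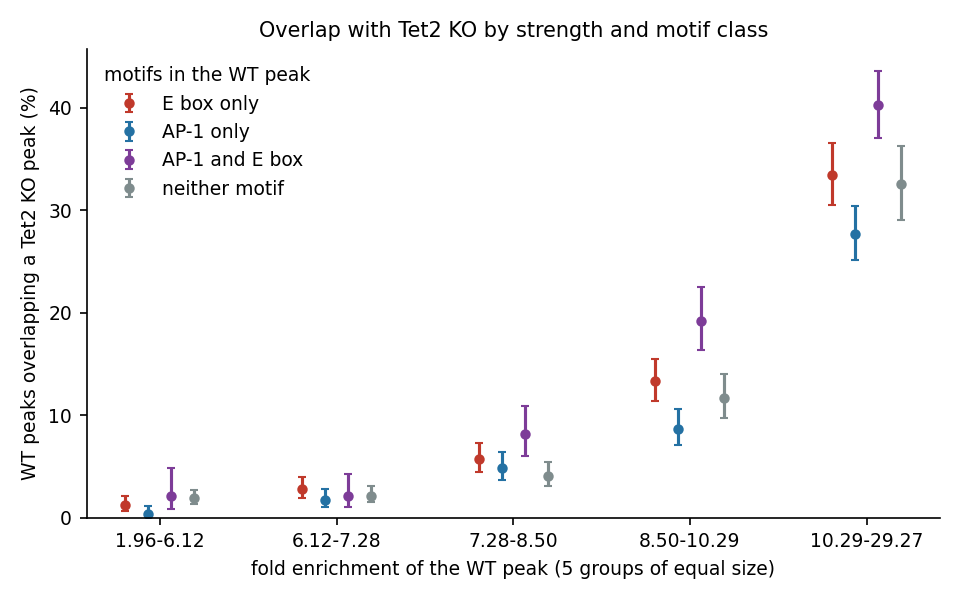
Percent of distal WT peaks that overlapped a Tet2 KO peak, on the y axis, in 5 groups of WT fold enrichment of equal size, on the x axis, for the 4 motif classes; points are shares and bars Wilson 95% intervals. Peaks with the E box only rose from 1.21% in the weakest group to 33.5% in the strongest, beside 1.95% and 32.6% for peaks with neither motif.

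From 1 to 4 E boxes in the peak the overlap was higher with each, and so was the width. It was 9.25% for WT members with 1 E box, 12.3% with 2, 19.0% with 3 and 41.9% with 4 (interval 30.5 to 54.3%), while the median width was 207, 240, 284.5 and 312 bp and the median fold enrichment 7.60, 8.24, 8.65 and 9.57. With 5 or more E boxes it was 37.5% (6 of 16, interval 18.5 to 61.4%) at a median width of 442 bp. Within groups of similar width the order held in the group of 300 to 399 bp and not in the others shown here. At 200 to 249 bp the shares were 3.72% with 1 E box, 3.31% with 2 and 3.45% with 3 or more, and at 250 to 299 bp they were 14.4%, 10.8% and 7.94%. At 300 to 399 bp they were 23.9%, 29.1% and 35.2% (interval 26.8 to 44.6%). Peaks of 400 bp or more had 52.2%, 45.3% and 53.3%. When E boxes were counted only within 100 bp of the summit, members with 1, 2 and 3 of them had a Tet2 KO peak in 9.31%, 9.58% and 16.6%, and those with 4 in 14.3% (4 of 28). The intervals with 1 (8.36 to 10.4%) and with 3 (11.9 to 22.7%) were apart, at median widths of 209 and 224 bp. The 527 members with no E box that near the summit had the higher share of 22.4% (19.0 to 26.1%), at a median width of 316 bp. Overlap thus did not rise steadily with the number of E boxes at the summit, and the part of width was not tested.

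**Figure D3:**
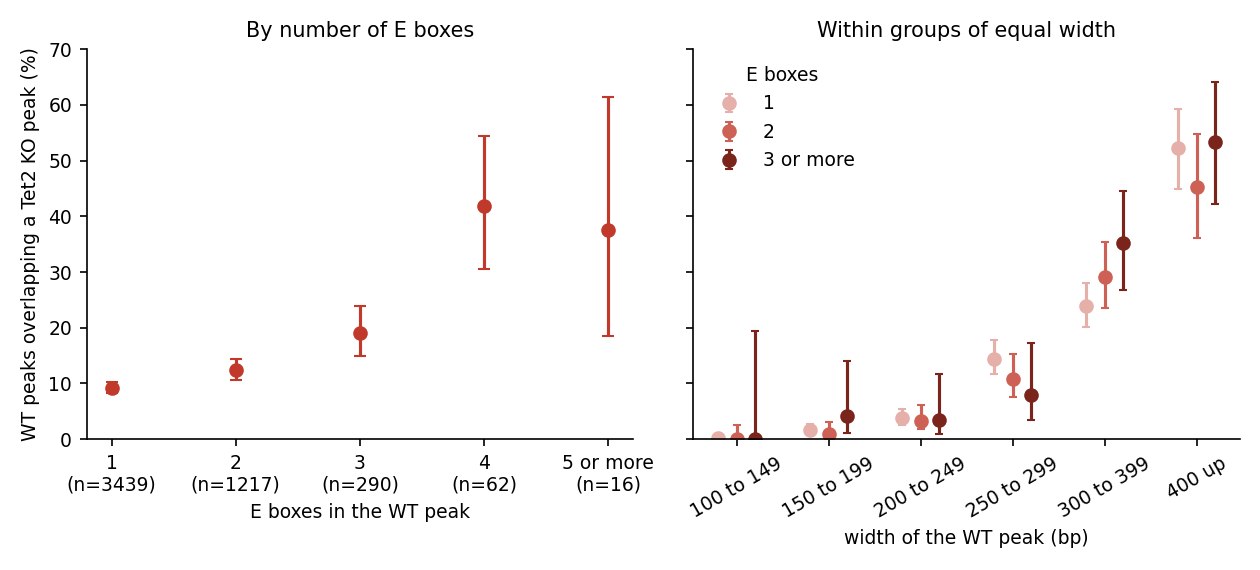
Percent of WT members that overlapped a Tet2 KO peak, on the y axis, by the number of E boxes in the whole peak (left) and by peak width in bp with 1, 2 or at least 3 E boxes (right); bars are Wilson 95% intervals. The share was 9.25% with 1 E box, 41.9% with 4 and 37.5% with 5 or more on the left, while on the right it was highest in the widest peaks at each number of E boxes.

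Members grouped by the nearness of the E box to the summit differed in width as well. Members whose nearest E box was within 25 bp of the summit had a Tet2 KO peak in 9.44% of 1992 cases, and those at 100 bp or more in 21.4% of 514, with median widths of 202 and 314 bp. Among peaks of 200 to 249 bp the shares were 4.11% within 25 bp, 3.64% at 25 to 50 bp, 2.86% at 50 to 75 bp and 3.23% at 75 to 100 bp, with overlapping intervals. The members at 100 bp or more were not compared at equal width, and the part of width in their share was not tested.

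The 555 WT members with a Tet2 KO peak were stronger than the 4469 without. Their median fold enrichment was 10.9 (interval 10.6 to 11.1) against 7.60 (7.49 to 7.66), their median fragment number at the summit 28 against 15, and their median width 340 against 209 bp. The shares in introns were 54.1% and 55.0%, and the median distances to the nearest start 19979 and 25723 bp. Their median GC content was 53.4% (52.9 to 53.9%) against 52.1% (52.0 to 52.4%).

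In these 555 pairs the Tet2 KO peak was the weaker in 551. The median fold enrichment was 10.9 in WT and 5.45 in Tet2 KO, and the median ratio of Tet2 KO to WT was 0.520 (0.508 to 0.529). The median fragment number was 28 and 14, and the genome-wide background of the lists 0.649 and 1.38 fragments. The part of depth and background in the lower values was not tested. The same ratio was 0.510 (0.499 to 0.525) in 458 distal pairs with AP-1 only and 0.559 (0.542 to 0.579) in 417 pairs with neither motif, so a lower value in Tet2 KO was shared by these classes. The pairs above equality were assigned to Fbxw4 (10.6 in WT, 15.4 in Tet2 KO), Loxl2 (4.34 and 6.52), Trim8 (5.53 and 5.70) and Tnrc18 (5.30 and 5.39), named after their values were seen.

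**Figure D4:**
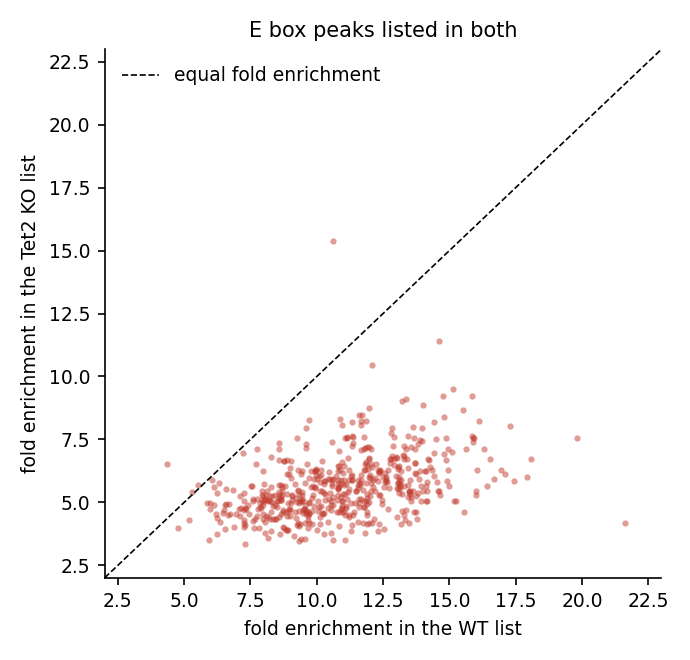
Fold enrichment of the 555 WT members with a Tet2 KO peak, in the WT list (x axis) and in the Tet2 KO list (y axis), both linear; each point is a pair and the dashed line marks equal values. 551 points lie below the line, and the point farthest above it is the Fbxw4 peak at 10.6 and 15.4.

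The summits of a pair lay a median of 39.0 bp apart, and 58.2% were within 50 bp. The Tet2 KO peaks were narrower, at a median of 196 against 340 bp, and 122 of the 555 held no E box, while 432 were members of the Tet2 KO list in their own right. Of the 536 Tet2 KO members, 528 overlapped a WT peak, which is 98.5% (97.1 to 99.2%) against 95.7% of distal and 96.8% of all Tet2 KO peaks. The WT peak was itself a member in 437 of these. In 83 the wider WT peak took in an AP-1 site as well. The 8 Tet2 KO members with no WT peak were led by one assigned to Gm17019, at a fold enrichment of 5.81, one in an intron of Hdgfrp2 at 5.09 and one in an intron of Gm15319 at 3.53, the last over a local background of 7.78 fragments.

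The WT members of highest significance with a Tet2 KO peak were chosen by their WT values, which favours a higher value in WT, and are given as a description. The Akap6 peak had the highest fold enrichment of all members, at 21.6 in WT with 42 fragments at the summit, and stood at 4.20 in Tet2 KO with 9. The Dst peak stood at 16.7 and 5.91. A peak 61733 bp upstream of Dpyd, which encodes an enzyme of pyrimidine breakdown, stood at 19.8 and 7.55. Intronic peaks of Rai1 and of Upp1, a uridine phosphorylase with 4 E boxes in its peak, stood at 17.1 and 6.13 and at 17.3 and 8.05.

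Peaks nearly as strong had no counterpart in Tet2 KO. The Bms1 peak stood at 17.3 with 38 fragments, the Tulp4 peak at 18 and an intronic peak of Sergef, with 3 E boxes, at 16.1. Intronic peaks of Pcdh7, a protocadherin, and of Arhgef2, a guanine nucleotide exchange factor, stood at 17.9 and 11.4. Among the peaks richest in E boxes, that of Xrcc5, which encodes a subunit of the Ku complex, stood at 14.5 in WT and 5.81 in Tet2 KO, while those of Dip2a, Exosc9, Stam and Frmpd1, at 7.69, 11.1, 15.4 and 12.8, had none in Tet2 KO. The Tet2 KO members of highest -log10 q after that of Fbxw4 were those of Cobl, an actin nucleator, at 11.4 against 14.6 in WT, Msi2, an RNA-binding protein, at 10.5 against 12.1, Olfml2b at 8.76 against 12.0 and Khdrbs3 at 9.49 against 15.1.

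Each member was assigned to the protein-coding gene that held it, or otherwise to the nearest start, which does not show that it acts on that gene. A WT member is called shared when it overlapped a Tet2 KO peak, whether or not that peak was itself a member. WT members were assigned to 3278 genes, or 14.7% of the 22238 annotated, and Tet2 KO members to 493, or 2.22%. These shares are the background for the gene lists that follow, and no list was tested against them. Genes differ in how many distal peaks are assigned to them, and the shares take no account of this. Ncam1, for example, had 18 distal WT peaks, of which 4 were members. Of the 10 annotated markers of cells that the sort removes, 5 had a WT member (50%, interval 23.7 to 76.3%) and 2 a Tet2 KO member, and of the 6 myoblast and satellite cell markers 1 had a member in WT and in Tet2 KO. A high share of genes with a member was thus not limited to lists of muscle genes. The genes with the most were led by Gm20388, a gene model of 4434882 bp with 28, followed by Msi2 and Tead1 with 11 each and Auts2 with 9. Tead1 encodes a factor that binds muscle promoters. Its 11 WT members had fold enrichments of 6.38 to 12.2, and 3 had a Tet2 KO peak.

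Among 13 myogenic regulators, 4 had WT members, 11 in all, of which 2 had a Tet2 KO peak. Myod1 itself had 4. A peak 4250 bp downstream of its start stood at 7.63 in WT and 3.98 in Tet2 KO, and one 26092 bp upstream at 7.25 and 5.36. Those 10496 and 59314 bp upstream, at 6.28 and 4.71 with 3 and 2 E boxes, had none in Tet2 KO. Mef2c had members at 10.9 and 10.9, 392392 and 296303 bp upstream of its start, and Mef2a 3 at 5.17 to 6.17, from 42130 to 89291 bp upstream. Eya2, a transcriptional cofactor, had an intergenic member at 6.32, 25246 bp upstream. Its other member, at 6.06, lay in an intron, 2223 bp upstream of the nearest annotated start of Eya2. None of these had a Tet2 KO peak. Myf5, Myf6, Myog, Pax7, Pax3, Eya1 and Mef2d were among those with no member.

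Of 15 E proteins, Id proteins and other regulators of E box binding, 8 had WT members, 15 in all with 4 shared. The strongest was in an intron of the E protein gene Tcf4, at 14.4 in WT and 6.06 in Tet2 KO. That of Tcf12, with 3 E boxes, stood at 10.2 and 5.45. A peak 6507 bp upstream of Id1 stood at 8.65 and 5.10. Of 4 assigned to Id2, from 94510 to 567370 bp upstream and at 7.27 to 11, 1 was shared, at 7.27 and 4.03. The Id3 member 3016 bp upstream, at 9.44, was in the WT list alone. So was that assigned to Zeb2, a repressor that binds E boxes, at 8.91 and 630749 bp upstream of the gene's start.

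Contractile genes had WT members at 22 of 42 (52.4%, interval 37.7 to 66.6%), against 14.7% of all genes and 50% of the markers of removed cells, and Tet2 KO members at 5. There were 28 in WT, with a median fold enrichment of 6.84 against 7.87 for all members, and 5 were shared. These lay at Myom1 (13.9 in WT, 5.64 in Tet2 KO), Ryr1, the calcium release channel (12.8 and 6.71), and Cacng1, a subunit of the muscle calcium channel (10.8 and 4.05). The others lay 88493 bp upstream of Tpm1, a tropomyosin (9.92 and 6.24), and at Lmod3, a nucleator of thin filaments (10 in WT, 5.03 in Tet2 KO). The Tet2 KO peak at Cacng1 was not itself a member. Neb had a Tet2 KO member, at 6.55, which overlapped a WT peak that was not a member. Among the WT members not shared were intronic peaks assigned to Actc1, the cardiac actin, at 9.56 and Actn2, an actinin, at 9.75. A further peak of Cacng1, at 10.1, was not shared either.

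The fusion and adhesion list had WT members at 12 of 18 genes (66.7%, interval 43.7 to 83.7%). This compares with 14.7% of all genes and 50% of the markers of removed cells, without regard to the number of distal peaks per gene. Its 28 members had a median fold enrichment of 9.63, and 5 were shared, which is 17.9% (7.88 to 35.6%). The shared peaks lay at Myof, a ferlin (14.8 in WT, 9.23 in Tet2 KO), Bin1, which shapes T tubules (10.3 and 5.84), Itgb1, the beta-1 integrin (10.9 and 8.29), Gm7325, which encodes the fusion micropeptide myomixer (11.6 and 5.76), and Ncam1, an adhesion molecule (9.59 and 7.97). The strongest Ncam1 member, at 14.2, the Tmem8c member at 11.7 and an Adam12 member at 13.2 had no Tet2 KO peak. Dysf, a membrane repair protein, had 6 members assigned to it, at 5.42 to 12.4, none of them shared. All were intergenic and not within the gene, from 2812 to 175377 bp downstream of the nearest annotated start.

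At the neuromuscular junction Dok7 alone of 10 genes had members, 3 in WT. The shared one stood at 7.99 in WT and 5.72 in Tet2 KO, while the one 2026 bp upstream, at 9.91, and an intronic one at 7.04 were not. In the dystrophin complex 6 of 11 genes had WT members and 0 had one in Tet2 KO, where the background was 2.22% of genes, so the 0 is no result about the complex. Of 11 peaks, 1 overlapped a Tet2 KO peak that was not itself a member, 42888 bp upstream of Utrn, the homologue of dystrophin, at 9.58 and 4.61. The strongest, 69060 bp upstream of Sntb1, a syntrophin, stood at 14.3. Those 224327, 10965 and 134062 bp upstream of Lama2, Dag1 and Dmd stood at 10.6, 6.00 and 6.06. Each of these lists held 28 members or fewer, and the interval of its shared share took in the 11.0% of all members in each, with no test made. Members named here beyond the strongest and the shared ones of each list were chosen after their values were seen.

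Other motifs near the summit were compared with distal peaks that held neither motif. Each was searched on both strands in the 201 bp window, with flank windows as background. TGTGGT, the RUNX core, was in 30.9% of WT members (29.6 to 32.1%), 34.2% of distal peaks with neither motif (32.9 to 35.4%) and 15.5% of flank windows. CATTCC, bound by TEAD factors, was in 20.3% (19.2 to 21.4%), 22.8% (21.7 to 23.9%) and 10.9%. Both were thus more frequent in members than in flanks and less frequent than in peaks with neither motif, with intervals apart. In distal peaks with AP-1 only they were in 30.4% and 18.8%, and in those with AP-1 and the E box in 26.4% and 19.0%. Members were thus not the lowest class. TTGGCA, bound by NFI factors, was in 15.9%, 14.7% and 9.98%, and GGAAGT, an ETS site, in 14.3%, 15.8% and 12.1%.

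The GC-rich site was also less frequent in members than in distal peaks with neither motif. GGGCGG, bound by SP and KLF factors, was in 8.0% of WT members, 12.2% of peaks with neither motif and 3.02% of flanks. With AP-1 only it was in 4.61%, and with AP-1 and the E box in 5.99%. It was in 11.2% of members with a Tet2 KO peak and 7.61% of those without. The CREB site TGACGTCA was in 0.736%, 0.890% and 0.129%, and the MEF3 site in 0.936%, 1.07% and 0.364%. CAGGTG, the E box of the ZEB and SNAI repressors, was in 13.3% of members (12.4 to 14.2%), 11.0% of peaks with neither motif (10.2 to 11.9%) and 14.2% of flanks.

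The MEF2 site was about as frequent in members as in flanks, at 3.13% (2.68 to 3.64%) against 3.47% in flanks and 3.87% of peaks with neither motif. The CArG box of SRF was in 1.33%, 1.05% and 1.56%, and TGATTGAC of PBX and MEIS in 0.438%, 0.470% and 0.563%, in the order of members, flanks and peaks with neither motif. A match shows that the letters are there and not that a factor was bound.

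**Figure D5:**
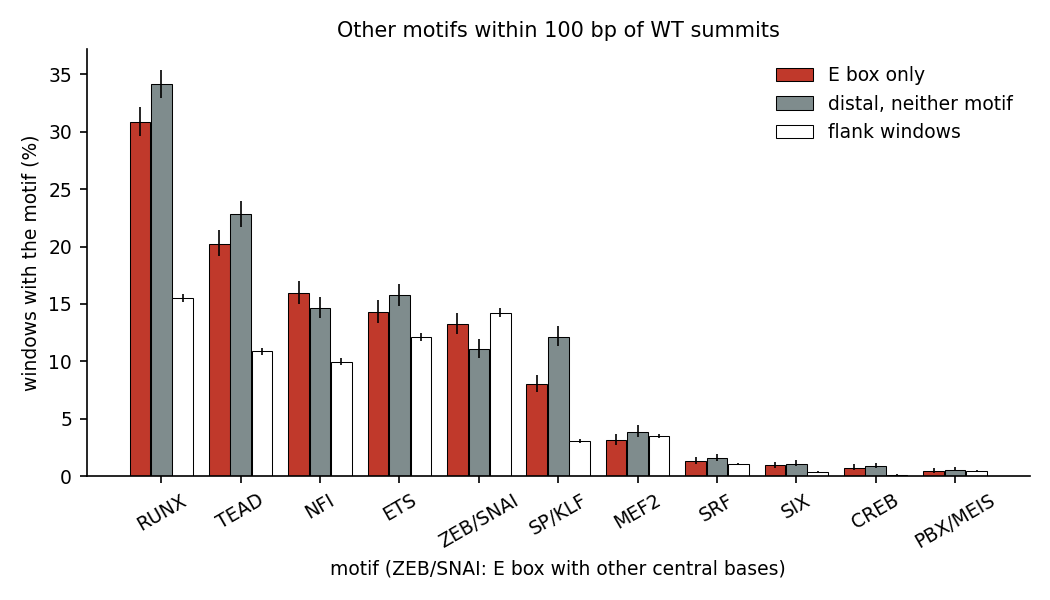
Percent of 201 bp windows that held each of 11 motifs (y axis, from 0), for WT members, distal WT peaks with neither the E box nor AP-1, and flank windows 2000 bp away; lines are Wilson 95% intervals. RUNX and TEAD motifs were in 30.9% and 20.3% of members against 15.5% and 10.9% of flanks, and MEF2 in 3.13% against 3.47%.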

How the data were processed

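ATAC-seq peak lists of primary myoblasts were used, 1 for WT and 1 for Tet2 KO. Read pairs of 36 bp after trimming were placed on mm9 by the authors using Bowtie2. Alignments under mapping quality 30 and Picard duplicates were discarded, and the methods give MACS2 with a q cutoff of 0.01. The lowest -log10 q was 2.46 among WT members and 0.863 among Tet2 KO members. The Tet2 KO list thus held peaks that fall short of this cutoff. The deposited columns used are the fold enrichment, a ratio with a pseudocount of 1, and the -log10 p and q values of each peak. Which replicate each list came from is not given in the sources used here. Fragment number and local background were recovered from the fold enrichment and -log10 p for 100% of peaks. Of these, 55 WT and 1 Tet2 KO peaks had several solutions. Sequence was read from NCBIM37 (mm9) and genes from GENCODE M1. Flank windows lay 2000 bp to either side. Intervals are 95% Wilson intervals or order intervals of medians and cover counting error only, and no test between genotypes was possible. Named peaks were the 5 WT members of highest -log10 q with and the 5 without a Tet2 KO peak, the 5 with most E boxes within 100 bp of the summit, the 5 leading Tet2 KO members, the 3 leading ones without a WT peak, and in each gene list the leading WT member of up to 6 genes and every shared member. Some items that this rule names are not reported here. The members and lists were chosen with earlier results of these data known. Scripts were tested on simulated data and ran in Python 3.11.15 with statsmodels 0.14.6, scipy 1.17.1, numpy 2.4.6, matplotlib 3.10.9 and pandas 2.3.3. Thresholds, overlap, motif windows and gene assignment were varied.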

Additional observations from a re-analysis of the deposited data

How the results depend on the processing

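Of 94 values recomputed under another setting, 79 stayed within their interval or, for counts and ratios, within 1.5 times, and 15 moved further. Limiting peaks to autosomes and X changed no value, and these unchanged values are among the 79. So is a ratio of WT to Tet2 KO members of 12.8, from a fold enrichment of 5 upward. Keeping peaks of either list only from a -log10 q of 5 upward left 314 Tet2 KO members, with a ratio of WT to Tet2 KO members of 14.8 and 6.54% of WT members overlapping a Tet2 KO peak. A limit of at least 10 left 2730 and 42 members, with a ratio of 65, an overlap of 1.65% and a median distance of the nearest E box of 37.5 bp. Requiring a fold enrichment of 5 or more gave an overlap of 7.78%, and it was 7.50% when 50% of each peak had to be shared, which left 67.7% of Tet2 KO members overlapping a WT peak. With any centre base allowed in the AP-1 site, 25.8% of distal WT peaks were members. With motifs sought within 100 bp of the summit only, the median distance was 31.5 bp. A CpG lay within 5 bp of 18.4% and within 25 bp of 54.7% of the E boxes of WT members. The strict limits remove more of the Tet2 KO list, whose q values are weaker, while for the remaining changes the cause was not tested. No paired analysis was possible because there was 1 list for WT and 1 for Tet2 KO and no result came from a test between samples. Leaving out a replicate could not be done for the same reason.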
